A study of Homo sapiens with 4 samples.

Results

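Genes of fatty acid synthesis and desaturation were examined in HeyC2 and SKOV3, 2 established lines of epithelial ovarian cancer cells. The list held 10 genes taken by symbol, FASN, ACACA, ACLY, SCD, ELOVL5, ELOVL6, FADS1, FADS2, ACSL3 and SREBF1, of the 26506 genes measured, and all 10 were found in both cell lines. Cells of each line were given 3 μg of either pCMV6/TET1, a plasmid from which TET1, an enzyme that oxidizes methylated cytosine, is overexpressed from a viral promoter (called TET1 here), or the plasmid without insert (control), and both were kept in 400 μg/ml Geneticin, which selects for the plasmid. Of each line and condition 1 RNA-seq library was made, 4 in all, so no difference within a line has a replicate check, no test was run, and an effect of TET1 and a difference between selected cultures cannot be told apart. The labels call the controls wild-type and do not say whether the selected cells were a pool or a clone.

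Cells build fatty acids from citrate. ACLY splits citrate to cytosolic acetyl-CoA, ACACA carboxylates acetyl-CoA to malonyl-CoA in the committed step, and FASN joins these units to palmitate. ELOVL6 and ELOVL5 lengthen the chains, SCD places the double bond that turns saturated into monounsaturated chains, FADS1 and FADS2 desaturate polyunsaturated chains, and ACSL3 activates fatty acids to acyl-CoA for lipid synthesis. SREBF1 encodes a membrane-bound transcription factor that is released by cleavage and switches on many genes of this pathway, while its relative SREBF2 acts mainly on cholesterol genes. Many tumors make fatty acids even where the blood supplies them, and ovarian cancer is among those in which FASN and SCD have been studied.

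Values are FPKM, the number of sequenced fragments scaled to the length of the transcript and the size of the library. GAPDH had the same FPKM in both libraries of a line, and the values of the TET1 libraries lay on a grid of multiples of 1 constant, 3.23 in HeyC2 and 1.35 in SKOV3, by which the authors' TET1 columns had therefore been multiplied. As deposited, the log2 change of all genes had a median of 1.61 in HeyC2 and 0.59 in SKOV3. The change of each gene is therefore given relative to that median, as log2((TET1 + 1)/(control + 1)) minus the median over genes with a mean of at least 1 FPKM in the line. A gene was counted as higher or lower when it lay at least 1.5-fold from the median.

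The libraries held an estimated 6620000 to 7340000 fragments. TET1 was at 0.20 and, as deposited, 1.68 FPKM in HeyC2 control and TET1 libraries, the latter 0.52 after division by the constant. In SKOV3 it was at 0.43 and 2.42 FPKM, the latter 1.80 after division. These values rest on an estimated 14, 33, 29 and 112 fragments. In HeyC2 the TET1 gene averaged below 1 FPKM, so no relative change is given for it. PAX8, a transcription factor of Müllerian epithelium, was at 74.59 to 629.87 FPKM and KRT8 at 475.73 to 1249.35 FPKM in all 4, while MUC16 did not exceed 0.05 FPKM and WT1 was listed at 0 in 3 libraries. ERBB2, which is amplified in SKOV3, was at 1281.74 and 1969.95 FPKM in SKOV3 and at 20.09 and 77.04 FPKM in HeyC2. The SKOV3 TET1 library differed from its control in some keratins, with KRT7 at 29.55 against 1537.20 FPKM and KRT19 at 0.62 against 255.14 FPKM. There KRT8 was at 1042.35 against 559.93 FPKM and KRT18 at 343.76 against 192.85 FPKM. In HeyC2 KRT7 went the other way, at 3637.30 FPKM in TET1 against 289.68 in control, a relative change of 2.04. KRT19 (0.62 FPKM in control and 5.14 in TET1) and EPCAM (0.09 and 1.23) were low in both HeyC2 libraries. The 10 fibroblast, immune and endothelial markers summed to 20.45 and 313.84 FPKM in HeyC2, where CDH5 made up 18.85 and 306.07, and to 1.85 and 47.19 FPKM in SKOV3, where COL1A1 made up 0.32 and 37.22, and CD3E was listed at 0 in all 4. The 8 epithelial markers summed to 1271.78 and 6748.18 FPKM in HeyC2 and to 2635.15 and 1615.05 FPKM in SKOV3, with 2, 2, 1 and 0 listed at 0, and 3, 4, 2 and 3 of the 10 other markers were listed at 0. Marker and ERBB2 values and sums of the TET1 libraries are as deposited. They still hold the multiplication by 3.23 in HeyC2 and 1.35 in SKOV3, so they cannot be read directly against the controls. GAPDH, relative to the all-gene median, was at -1.61 in HeyC2 and -0.59 in SKOV3, so a change read against GAPDH would be larger by that amount. The part of these shifts in the results that follow was not tested.

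In GRCh37, the build of hg19, FASN (chromosome 17, 80036214 to 80056170), ACLY (chromosome 17, 40023170 to 40086795), ACACA (chromosome 17, 35441927 to 35766927) and SREBF1 (chromosome 17, 17713713 to 17740316) lie on the same chromosome, all on the minus strand. SCD lies on chromosome 10 (102106990 to 102124583), ELOVL6 on chromosome 4 (110967002 to 111120355), ELOVL5 on chromosome 6 (53132196 to 53213977) and ACSL3 on chromosome 2 (223725660 to 223809357). FADS1 (chromosome 11, 61567099 to 61596790, minus strand) lies within the annotated span of FADS2 (chromosome 11, 61560452 to 61634826, plus strand). The main transcripts of the pair start 11297 bases apart and run away from each other. The strand setting of the counting is not given in the sources used here, so fragments from stretches shared by the pair cannot be told apart.

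Promoter sequences were taken from RefSeq on GRCh38.p14, as windows of 300 bases from 250 before to 50 after an annotated start, and 9 of the 10 genes had a window (13 windows, FASN had no entry). 4 motifs were searched on both strands: TCACNCCAC, the core of the sterol regulatory element, CCAAT, the site of NF-Y, CACGTG, an E-box, and GGGCGG, a GC box. None contains another, although adjacent GC boxes can overlap each other. The sterol element core was in 0 of the 13 windows, against 1.13% of all 35116 windows. CCAAT was in 8 of the 13, of 6 genes, against 34.6% of all windows, GGGCGG in 10, of 8 genes, against 45.0%, and CACGTG in 1, that of ELOVL5, against 7.26%. In the 20 windows of cholesterol synthesis genes CCAAT was in 15, GGGCGG in 18, CACGTG in 3 and the sterol element core in 0. The windows held a median of 28 CpG sites, the dinucleotide at which TET1 acts, with a range of 5 to 53, against a median of 14 over all windows. A match is a description of the letters and not of binding, and methylation was not analysed here. The sterol element core is rare in all windows and was absent from those of the cholesterol genes as well. Its absence therefore cannot show that a gene lacks a sterol element.

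The 250 bases before the start are shown for SREBF1 and ELOVL6, the genes that stood higher in both cell lines, for SCD, which has CCAAT sites, and for the neighbors FADS1 and FADS2, whose changes differed in SKOV3. Capitals mark the CCAAT and GC box letters on either strand, and each line runs 5′ to 3′ along the gene's strand. Both RefSeq windows of FADS2 lie beside that of FADS1, whereas the main transcripts start 11297 bases apart, so the FADS2 window shown is not that of its main transcript.
SREBF1, chr17:17836987-17837236, minus strand: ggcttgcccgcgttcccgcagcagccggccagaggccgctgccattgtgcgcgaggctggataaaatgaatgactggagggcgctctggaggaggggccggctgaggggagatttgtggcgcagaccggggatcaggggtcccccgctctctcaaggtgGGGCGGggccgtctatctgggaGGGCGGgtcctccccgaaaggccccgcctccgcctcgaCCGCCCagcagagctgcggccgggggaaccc
ELOVL6, chr4:110198616-110198865, minus strand: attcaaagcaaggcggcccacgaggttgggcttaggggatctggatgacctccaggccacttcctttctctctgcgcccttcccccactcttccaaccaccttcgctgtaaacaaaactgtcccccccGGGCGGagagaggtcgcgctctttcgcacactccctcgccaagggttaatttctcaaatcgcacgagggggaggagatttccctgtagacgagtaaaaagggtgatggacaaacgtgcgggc
SCD, chr10:100346983-100347232, plus strand: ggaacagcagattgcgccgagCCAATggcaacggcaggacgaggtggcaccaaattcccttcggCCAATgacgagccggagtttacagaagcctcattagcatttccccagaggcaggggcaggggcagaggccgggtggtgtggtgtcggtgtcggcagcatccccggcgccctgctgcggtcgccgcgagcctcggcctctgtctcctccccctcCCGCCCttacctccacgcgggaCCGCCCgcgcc
FADS1, chr11:61817004-61817253, minus strand: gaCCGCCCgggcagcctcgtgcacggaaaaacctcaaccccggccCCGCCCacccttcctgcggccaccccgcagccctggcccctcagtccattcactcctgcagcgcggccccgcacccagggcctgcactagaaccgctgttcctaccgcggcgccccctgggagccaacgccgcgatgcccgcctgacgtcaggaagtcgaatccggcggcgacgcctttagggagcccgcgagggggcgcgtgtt
FADS2, chr11:61816154-61816403, plus strand: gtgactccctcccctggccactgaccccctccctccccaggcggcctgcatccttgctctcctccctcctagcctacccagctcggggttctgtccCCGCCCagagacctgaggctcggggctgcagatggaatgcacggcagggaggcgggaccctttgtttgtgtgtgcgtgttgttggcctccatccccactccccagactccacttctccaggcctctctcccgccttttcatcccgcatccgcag

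To describe how strongly the pathway was expressed, levels were compared within each library, where FPKM accounts for transcript length and no scaling enters. The genes spanned 45.6-fold in HeyC2 control, from SCD at 328.04 FPKM to ACACA at 7.20, and 49.8-fold in SKOV3 control, from ACLY at 120.51 FPKM to ELOVL6 at 2.42. SCD stood at percentile 98.7 of the genes above 0 FPKM in HeyC2 control, and ELOVL6 at percentile 34.0 in SKOV3 control. In HeyC2 the order of the 7 highest, SCD, ACLY, FASN, FADS1, ACSL3, ELOVL5 and SREBF1, was the same in control and TET1. In SKOV3 control the order was ACLY, FASN, SCD, FADS1, ELOVL5, ACSL3, FADS2, ACACA, SREBF1 and ELOVL6, and in SKOV3 TET1 SREBF1 stood above ELOVL5 and ACSL3, and SCD above FASN. Of the 9 pairs of neighbors in each order, those whose 95% counting intervals overlapped were ACSL3 with ELOVL5 in both HeyC2 libraries, FADS2 with ELOVL6 in HeyC2 control, SCD with FADS1 in SKOV3 control, and ACLY with SCD and SREBF1 with ELOVL5 in SKOV3 TET1. These intervals rest on estimated fragments and cover counting error only.

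**Figure D1:**
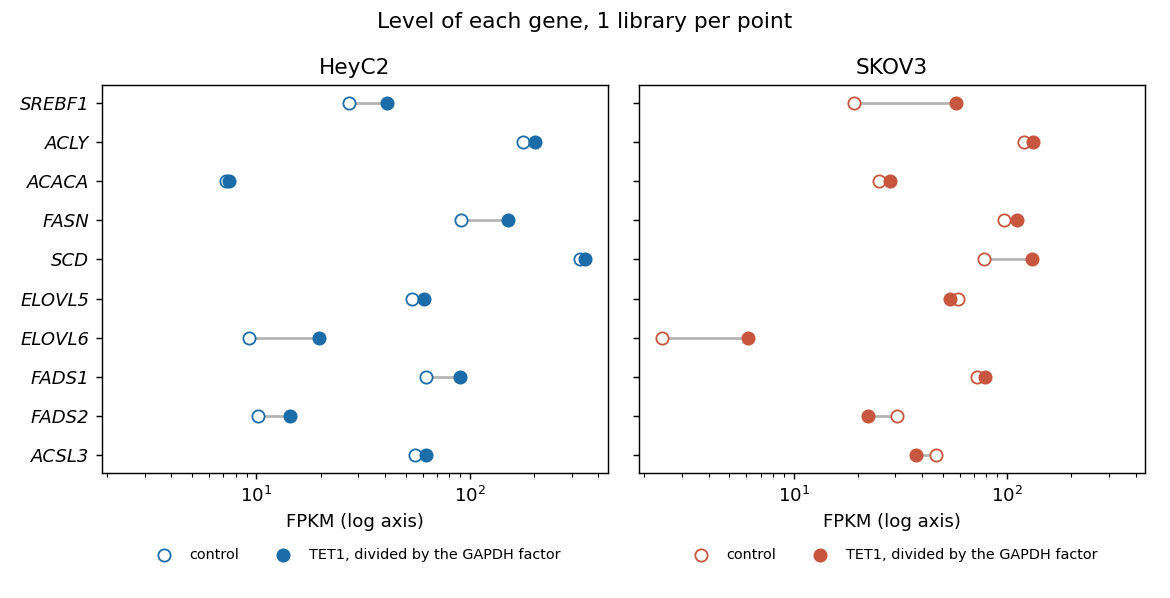
FPKM of the 10 genes on a log axis in HeyC2 (left) and SKOV3 (right), with open circles for the control library and filled circles for the TET1 library after division by the GAPDH factor, 1 library per circle. SREBF1, ELOVL6, FASN, ACLY, ACACA, SCD and FADS1 lie to the right of their controls in both panels, and ACSL3, ELOVL5 and FADS2 lie to the right in HeyC2 and to the left in SKOV3.

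Between the controls of the lines, which were tabulated separately and compared in the same way relative to the all-gene median, 2 of the 10 genes were at least 1.5-fold higher in SKOV3 (28.6% of all 12488 genes tested) and 4 were at least 1.5-fold lower (29.0%). ACACA was at 25.11 FPKM in SKOV3 against 7.20 in HeyC2, and FADS2 at 30.57 against 10.19. SCD was at 78.19 FPKM in SKOV3 against 328.04 in HeyC2, and ELOVL6 at 2.42 against 9.23. These counts lie near the shares among all genes and are not a result about the pathway.

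In HeyC2, all 10 genes lay above the all-gene median in the TET1 library, with a median relative change of 0.37 on the log2 scale against 0 for all genes by construction. FASN, ELOVL6, FADS1 and SREBF1, 4 of 10, were at least 1.5-fold higher (13.0% of all 12993 genes tested), and 0 of 10 were at least 1.5-fold lower (12.9%). When the TET1 column was divided by the GAPDH factor before 1 was added, ACACA stood at -0.01, the median was 0.26 and 2 of 10, FASN and ELOVL6, were higher (12.5% of all genes). In SKOV3, 4 genes lay above and 6 below the all-gene median, and the median relative change was -0.01. Here 2 of 10, SREBF1 and ELOVL6, were at least 1.5-fold higher (20.6% of all 13339 genes tested) and 1 of 10, FADS2, was at least 1.5-fold lower (17.9%). The count of higher genes in SKOV3 was close to the share among all genes.

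**Figure D2:**
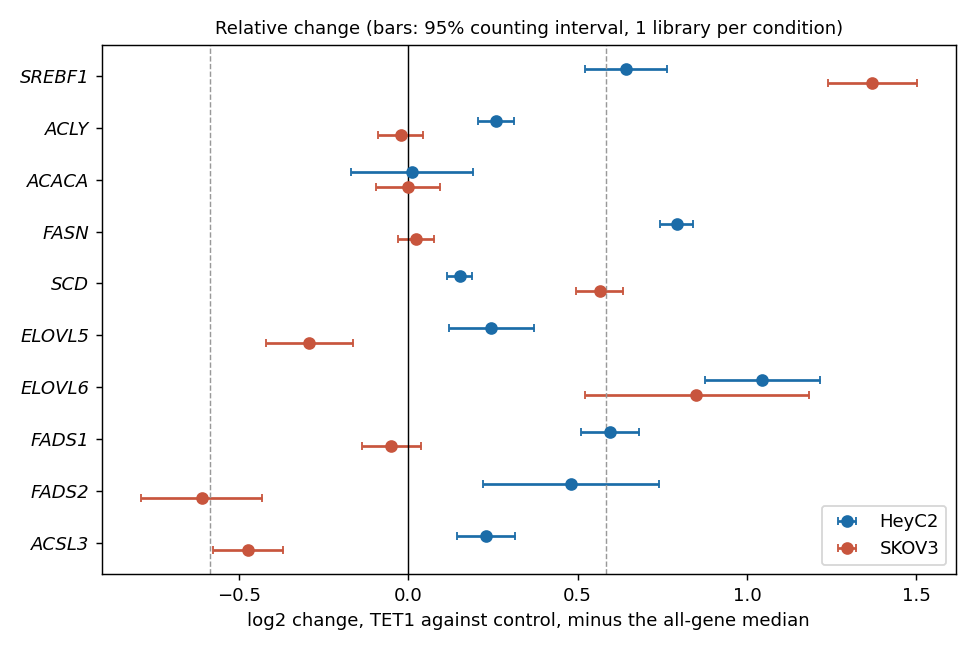
Relative log2 change of each gene (x axis, TET1 against control minus the all-gene median) in HeyC2 (blue) and SKOV3 (red), with bars for the 95% counting interval and dashed lines at 1.5-fold. SREBF1 and ELOVL6 lie to the right of 0 in both lines, FASN and FADS1 pass the upper dashed line in HeyC2 and lie near 0 in SKOV3, and FADS2, ACSL3 and ELOVL5 lie on opposite sides of 0 in the lines.

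SREBF1, the regulator, was at 27.04 FPKM in HeyC2 control and 132.51 FPKM in HeyC2 TET1 as deposited, which is 41.0 FPKM after division by the factor. In SKOV3 it was at 19.23 FPKM in control and 77.58 FPKM in TET1, or 57.7 FPKM after division. Its relative change was 0.64 (95% counting interval 0.52 to 0.76) in HeyC2 and 1.37 (1.24 to 1.501) in SKOV3, where it ranked 710 from the top of 13339 genes. SREBF1 was thus the member with the largest change in SKOV3. Division by the factor before 1 was added left 0.52 in HeyC2, below the 1.5-fold line. The tables give the gene as a whole and do not separate its transcripts from different starts. SREBF2 stood at a relative change of 0.60 in HeyC2 (0.46 after division by the factor) and 0.20 in SKOV3, and the ratio of SREBF1 to SREBF2 within a library was 0.309 and 0.325 in HeyC2 control and TET1 but 0.252 and 0.586 in SKOV3.

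Of the enzymes that make palmitate, ACLY was at 178.08 and 652.64 FPKM in HeyC2 control and TET1 (201.8 after division) and at 120.51 and 178.85 FPKM in SKOV3 (132.9). ACACA was at 7.20 and 24.19 FPKM in HeyC2 (7.48) and at 25.11 and 38.23 FPKM in SKOV3 (28.4). FASN was at 91.09 and 485.45 FPKM in HeyC2 (150.1) and at 97.18 and 148.95 FPKM in SKOV3 (110.7). The HeyC2 relative change was 0.79 (0.74 to 0.84) for FASN, 0.26 (0.20 to 0.31) for ACLY and 0.01 (-0.17 to 0.19) for ACACA. In SKOV3 it was 0.02 (-0.03 to 0.07) for FASN, -0.02 (-0.09 to 0.04) for ACLY and -0.00 (-0.10 to 0.09) for ACACA. FASN in HeyC2 thus passed 1.5-fold and stood at 0.66 after division by the factor, while the other 5 values did not pass. ACLY in HeyC2 stood at 0.12 after division. The ratio of FASN to ACACA was 12.7 and 20.1 in HeyC2 control and TET1 and 3.87 and 3.90 in SKOV3. After correction for GC content and transcript length, the relative change of FASN, whose main transcript is 65.3% G and C, was -0.30 in SKOV3.

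Of the enzymes that shape the chains, ELOVL6, which lengthens palmitate, was at 9.23 and 63.39 FPKM in HeyC2 control and TET1 (19.6 after division) and at 2.42 and 8.26 FPKM in SKOV3 (6.14). Its relative change was 1.04 (0.88 to 1.21) in HeyC2, the largest of the list there, and 0.85 (0.52 to 1.18) in SKOV3, on an estimated 110 and 260 fragments. ELOVL5, which lengthens polyunsaturated chains, was at 53.59 and 196.42 FPKM in HeyC2 (60.7) and at 58.96 and 72.61 FPKM in SKOV3 (54.0), with relative changes of 0.25 (0.12 to 0.37) and -0.29 (-0.42 to -0.16). The ratio of ELOVL6 to ELOVL5 was higher in the TET1 library of both lines, at 0.323 against 0.172 in HeyC2 and at 0.114 against 0.0410 in SKOV3. SCD was at 328.04 and 1114.38 FPKM in HeyC2 (344.5) and at 78.19 and 175.14 FPKM in SKOV3 (130.2). Its relative change was 0.15 (0.12 to 0.19) in HeyC2, but 0.01 after division by the factor. Over the settings that kept a reference at 0, SCD in HeyC2 ranged from -0.02 to 0.30. In SKOV3 its relative change was 0.56 (0.50 to 0.63), just inside the 1.5-fold line at 0.58, and 0.63 with genes of at least 5 FPKM as the reference. The ratio of SCD to FASN was lower in TET1 than in control in HeyC2, at 2.30 against 3.60, and higher in SKOV3, at 1.18 against 0.805.

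FADS1 was at 62.35 and 290.84 FPKM in HeyC2 control and TET1 (89.9 after division) and at 72.35 and 105.49 FPKM in SKOV3 (78.4). FADS2 was at 10.19 and 46.64 FPKM in HeyC2 (14.4) and at 30.57 and 30.09 FPKM in SKOV3 (22.4). The relative changes were 0.59 (0.51 to 0.68) for FADS1 and 0.48 (0.22 to 0.74) for FADS2 in HeyC2, and -0.05 (-0.14 to 0.04) and -0.61 (-0.79 to -0.43) in SKOV3. The pair thus kept its proportion in HeyC2, with a ratio of FADS2 to FADS1 of 0.163 and 0.160, and had less FADS2 in SKOV3 TET1, where the ratio was 0.285 against 0.423 in control. FADS1 in HeyC2 was just past the 1.5-fold line at 0.58 and stood at 0.46 after division by the factor. FADS2 in SKOV3 stood at -0.55, short of 1.5-fold, when genes of at least 5 FPKM served as the reference. ACSL3 was at 55.53 and 201.28 FPKM in HeyC2 (62.2) and at 46.59 and 50.52 FPKM in SKOV3 (37.5), with relative changes of 0.23 (0.15 to 0.32) and -0.47 (-0.58 to -0.37). Its ratio to ACSL4, which prefers arachidonate, was 1.16 and 1.32 in HeyC2 and 3.13 and 2.54 in SKOV3.

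**Figure D3:**
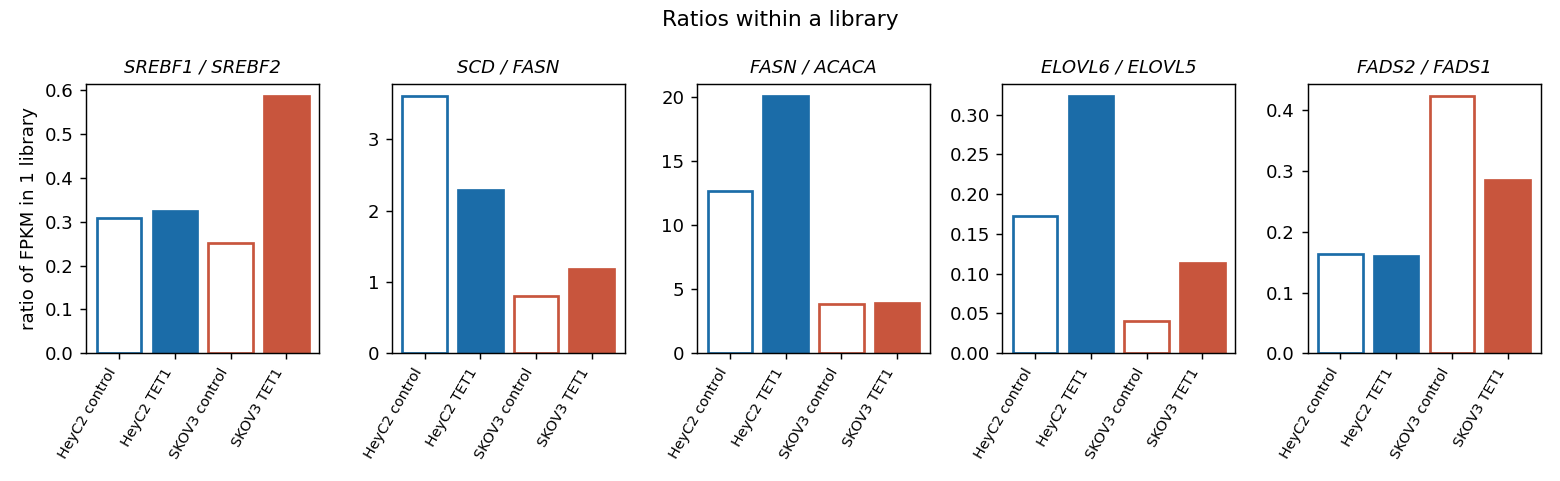
Ratios of FPKM between members of the pathway within each library (y axis, starting at 0), with open bars for control and filled bars for TET1, 1 library per bar. SREBF1 to SREBF2 stands at 0.586 in SKOV3 TET1 against 0.252 to 0.325 in the other libraries, and SCD to FASN is lower in TET1 than in control in HeyC2 and higher in SKOV3.

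The change in SKOV3 differed from that in HeyC2 by at least 1.5-fold for 5 of the 10 genes, as it did for 45.0% of the 11888 genes tested in both lines. SREBF1 was the gene with the larger change in SKOV3, by 0.73 on the log2 scale, and FADS2, FASN, ACSL3 and FADS1 had the smaller one, by 1.09, 0.77, 0.70 and 0.65. A share near that of all genes is not a result about the pathway.

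Other genes around the pathway were placed in 10 lists of 107 genes. Of all genes tested, 13.0% were higher and 12.9% lower in HeyC2, and 20.6% and 17.9% in SKOV3. After division by the factor the HeyC2 shares were 12.5% and 9.17%. A list count near these shares is not a result about that list. Division of the TET1 column by the factor before 1 was added changed HeyC2 counts in 7 of the lists, given with each, and no count of higher or lower genes in SKOV3. In acetyl-CoA and NADPH supply, 1 of 7 genes tested in HeyC2 was at least 1.5-fold higher and 1 lower, and 1 of 6 was higher in SKOV3. ACSS2, which makes acetyl-CoA from acetate, had a relative change of 0.65 in HeyC2 against -0.04 in SKOV3. IDH1, a source of NADPH, had -0.04 in HeyC2 against 0.75 in SKOV3. ACSS1, the mitochondrial acetate enzyme, was at -0.89 in HeyC2. After division ACSS2 was at 0.52 and ACSS1 at -0.48, which left 0 of 7 genes past 1.5-fold in either direction.

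Among other chain synthesis genes, 1 of 5 was higher and 1 lower in HeyC2 and 2 of 7 were higher in SKOV3. MCAT and MECR of mitochondrial fatty acid synthesis stood at 0.64 and -0.60 in HeyC2, and at 0.57 and -0.56 after division, which left 0 of 5 past 1.5-fold in either direction. MID1IP1, whose protein makes acetyl-CoA carboxylase polymerize, was at 20.90 and 72.79 FPKM in SKOV3 control and TET1, a relative change of 1.16, and at 0.04 in HeyC2. HSD17B8 was at 0.77 in SKOV3.

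Of the other elongation cycle genes, 0 of 9 were higher and 1 lower in HeyC2, and 2 of 9 were higher and 1 lower in SKOV3. ELOVL1, which makes very long saturated chains, was at 104.04 and 68.82 FPKM in SKOV3 control and TET1, a relative change of -1.18, while ELOVL4 and ELOVL2 were at 0.64 each. In HeyC2 ELOVL4 was at -0.68, from 0.56 to 1.97 FPKM as deposited, and failed the filter after division by the factor. After division 2 of 8 genes were higher and 0 lower in HeyC2, with ELOVL2 at 0.62 and ELOVL7 at 0.68.

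Among other desaturases and electron carriers, 3 of 6 genes were higher in HeyC2 and 1 of 6 was lower in SKOV3, with medians of 0.52 and -0.34. The HeyC2 count and median include CYB5A, which passed the filter of 1 FPKM only through the TET1 library. FADS3 and the sphingolipid desaturase gene DEGS1 were at 0.73 and 0.87 in HeyC2 and at -0.28 and -0.39 in SKOV3. CYB5A, cytochrome b5, which passes electrons to the desaturases, was at 0.20 FPKM in HeyC2 control, an estimated 5 fragments, and at 48.68 FPKM in HeyC2 TET1, an estimated 312. Its ratio before the scaling was 75.3 (95% counting interval 31.9 to 233.4), and in SKOV3 it was at 7.81 and 8.48 FPKM. CYB5B was at -0.87 in SKOV3.

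Of the other acyl-CoA synthetases, 1 of 6 was higher and 1 lower in HeyC2, SLC27A3 at 0.69 and ACSL5 at -0.82. In SKOV3 4 of 8 were higher and 2 lower, with SLC27A1 at 1.42, SLC27A2 at 0.91 and ACSBG1 at 0.88. SLC27A2 was at 1.02 and 4.72 FPKM in control and TET1, ACSBG1 at 0.40 and 2.88, and SLC27A3, also higher, at 0.86 and 3.61. ACSBG1 and SLC27A3 thus passed the filter of 1 FPKM only through the TET1 library. The SKOV3 median of this list was 0.39, and -0.01 with a minimum of 5 FPKM. Lower were SLC27A5 at -1.38 and ACSL1 at 30.67 FPKM in control and 22.75 FPKM in TET1. In the regulator list 2 of 12 genes were higher in HeyC2, NR1H3, the liver X receptor gene that activates SREBF1, at 0.78 and SREBF2 at 0.60, and 1 of 12 after division, without SREBF2. In SKOV3 2 of 13 were higher, MLXIPL, a carbohydrate-response factor, at 1.22, from 0.36 to 3.77 FPKM, and SCAP, the escort of the SREBP proteins, at 0.75. MLXIPL, too, passed the filter of 1 FPKM only through the TET1 library.

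Downstream, 3 of 10 glycerolipid and droplet genes were higher in HeyC2, the phosphatidate phosphatase genes LPIN3 and LPIN2 at 1.77 and 0.88 and DGAT1 at 0.69, and 0 were lower. After division 3 were higher and 1 lower, AGPAT1 at -0.60. In SKOV3 AGPAT2 was at 0.61 and PLIN3 at -0.73, 1 of 10 in each direction. PLIN2 was listed at 0 in both HeyC2 libraries. Fatty acid oxidation genes, the opposite pathway, had a median of -0.15 in HeyC2, and of -0.23 after division. There 10 of 12 lay below the all-gene median, which splits all tested genes evenly by construction. HADH and SLC25A20 passed 1.5-fold at -0.69 and -0.68, the latter at -0.50 after division, which left 1 of 12 lower. In SKOV3 the median of the oxidation genes was -0.01 (-0.09 after division), and ACADVL and ACADS were at 0.94 and 0.66. Of fatty acid uptake and binding genes, 3 of 7 were tested in each line, with 0 past 1.5-fold in HeyC2 and medians of 0.40 in HeyC2 and 0.23 in SKOV3.

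Cholesterol synthesis, the sister pathway under SREBF2, had medians of 0.42 in HeyC2 and -0.72 in SKOV3. In HeyC2 9 of 20 genes were higher (13.0% of all genes tested) and 0 lower (12.9%), with TM7SF2 at 1.72 and SC5D at 0.76. After division 4 of 20 were higher and 0 lower, and the median was 0.29. In SKOV3 1 of 20 was higher (20.6% of all genes tested), TM7SF2 at 1.45. There 12 were lower (17.9%), with ACAT2 at -1.21, FDFT1 at -1.13 and NSDHL at -1.10. The fatty acid and cholesterol lists thus had like medians in HeyC2, while in SKOV3 the median was -0.72 for the cholesterol list against -0.01 for the fatty acid list, a difference that was not tested.

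**Figure D4:**
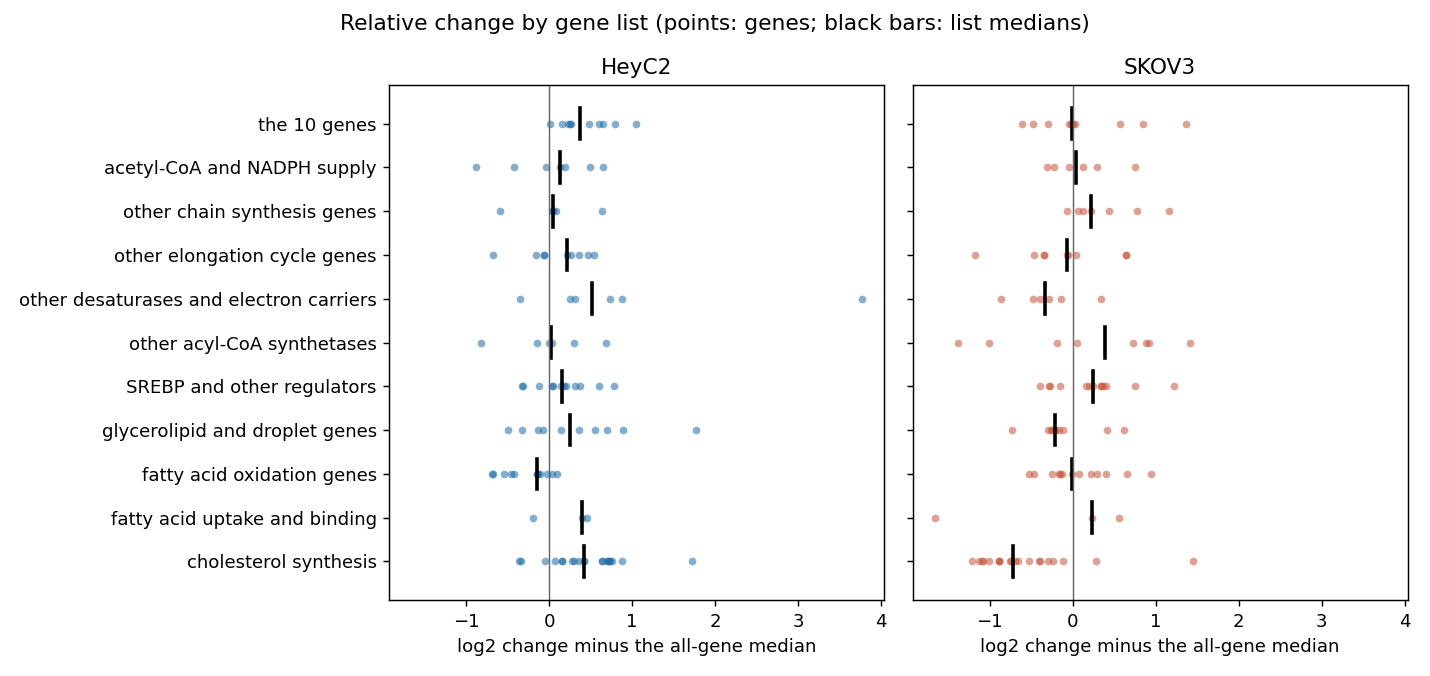
Relative log2 change (x axis) of each tested gene by list in HeyC2 (left) and SKOV3 (right), with points for genes and black bars for list medians. In SKOV3 the 10 genes have a median of -0.01 and cholesterol synthesis genes one of -0.72, against 0.37 and 0.42 in HeyC2.

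The 5 genes outside the list whose pair of relative changes was nearest to the pair of member medians, among 5038 genes of at least 10 FPKM in all 4 libraries, were TOMM20, SAR1A, SNU13, HDAC3 and UXT, at Euclidean distances of 0.0060 to 0.019. TOMM20, for example, was at 0.36 in HeyC2 and -0.01 in SKOV3. Their pairs rest on the same 4 libraries as those of the members.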

How the data were processed

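RNA was sequenced in 4 libraries, HeyC2 and SKOV3 cells with a TET1 plasmid or the empty plasmid, grouped by the titles of the labels. Per the labels, TruSeq libraries were sequenced in pairs, aligned to hg19 with Bowtie2 (2.2.6) and quantified with RSEM (1.2.17). The authors deposited FPKM, 1 table per line. The annotation used is not given in the sources used here. GAPDH was equal in both columns of a table, and 100% of the distinct TET1 values below 40 FPKM lay on multiples of 0.01 times 3.23 (HeyC2) or 1.35 (SKOV3).

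From the FPKM, log2 changes were taken after adding 1, and centred on the median of the genes that averaged 1 FPKM or more in the line. A change is understated for genes of low FPKM. In the scaled TET1 columns the pseudocount weighs less than in the control, which lowers the relative change of genes of low FPKM and raises that of the others, so counts that shift after division by the factor are given beside the main ones. With 1 library per condition, no test was run and no p-value is given. Depth was taken as the fragment total that turned most low FPKM of genes with 1 annotated transcript into whole numbers (42.3% to 49.0% of genes, 14.7% to 15.6% by rounding alone), with 160 to 180 bases subtracted from the length. Counting intervals (95%, exact binomial for ratios and exact Poisson for levels) rest on these estimates and the main GENCODE transcript, and take the all-gene median as fixed.

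The members and gene lists were chosen with earlier results of these data known. Named genes were the members, TET1 and GAPDH, up to 3 highest and 3 lowest per list and line among genes at least 1.5-fold from the median, and the 5 nearest genes. Some genes that this rule names are not reported here. ERBB2, the ratios, the genes given at 0 or as reference levels and those named for a shift after division were chosen after values were seen. Symbols of 22156 of 26506 genes (83.6%) and of all listed genes had GENCODE transcripts on GRCh37. The scale factor, depth and changes were tested on simulated data. The planted changes there were well beyond 1.5-fold and in well expressed genes only. That test therefore does not cover the recovery of changes near 1.5-fold or in genes of low FPKM. Python 3.11.15, numpy 2.4.6, pandas 2.3.3, scipy 1.17.1 and matplotlib 3.10.9 were used.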

Additional observations from a re-analysis of the deposited data

Results flagged for a closer look

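The change of FADS2 was positive in HeyC2 and negative in SKOV3, with counting intervals that did not include 0 in either line, and the SKOV3 change lay -1.09 from that in HeyC2. ACSL3 differed in the same way, by -0.70, and ELOVL5 by -0.54. After division of the TET1 columns by the GAPDH factor, the HeyC2 changes were 0.40 for FADS2, 0.10 for ACSL3 and 0.12 for ELOVL5, and the SKOV3 changes were -0.63, -0.50 and -0.32. The counting intervals were set around the changes before division only. They do not show whether the divided HeyC2 changes of ACSL3 and ELOVL5 exceed counting error. With 1 library per condition these differences between the lines were not tested.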

How the results depend on the processing

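All alternatives were set at the outset, and with 1 library per condition no library could be left out. In HeyC2 the median of the 10 genes was 0.26 with a pseudocount of 0.1, 0.25 with 0.01, 0.52 with no filter on low values, 0.26 after division by the GAPDH factor, 0.26 as TPM without centring, 0.23 relative to the upper quartile and 1.98 as deposited without centring. The number of higher genes there was 2 with either smaller pseudocount, after division by the factor, as TPM and relative to the upper quartile, 10 as deposited and 1 at a threshold of 2-fold. In SKOV3 the median was 0.11 with no filter, 0.21 as TPM, 0.14 relative to the upper quartile and 0.58 as deposited. The number of higher genes there was 5 as deposited and 1 at 2-fold. The number of lower genes was 0 with no filter, with a minimum of 5 FPKM, as TPM, relative to the upper quartile, as deposited and at 2-fold, and 3 at 1.2-fold. Values without centring hold the scaling to GAPDH or the library sum, and for the other shifts the cause was not tested. Over the reported setting and the 7 others that kept a reference at 0, FASN in HeyC2 ranged from 0.63 to 0.94, ELOVL6 from 0.91 to 1.19 in HeyC2 and 0.85 to 1.11 in SKOV3, SREBF1 from 0.50 to 0.79 and 1.13 to 1.52, and FADS2 in SKOV3 from -0.71 to -0.46. No setting turned the direction of a single gene past 1.5-fold in the reported setting. Those were the 4 higher genes in HeyC2 and the 2 higher and 1 lower in SKOV3. Smaller changes were not counted, and some changed sign. SCD in HeyC2 was at -0.02 with a pseudocount of 0.01, and FASN in SKOV3 at -0.30 after correction for GC content and length. Depth limits ELOVL6 and FADS2 most, with 110 to 852 and 219 to 632 estimated fragments per library.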
